A study of Mus musculus with 6 samples.

Results

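Small nucleolar RNA (snoRNA) host genes are long non-coding RNA genes that carry snoRNAs within their transcripts. Described here are Gas5, Snhg1, Snhg3, Snhg5, Snhg6, Snhg8, Snhg12, Snhg15, Snhg17 and Snhg20, chosen by name and matched through their Ensembl identifiers to the GENCODE annotation of the mouse build GRCm38. All 10 were found among the 55487 genes of the count tables. The samples were tumour-associated macrophages sorted out of subcutaneous Lewis lung carcinoma tumours, a mouse lung cancer line, in C57BL/6 mice at day 15 to 17. After enrichment for CD11b, cells positive for CD11b and F4/80 but negative for Ly6C and Ly-6G were split on surface MHC class II. Each label, MHC-II high and MHC-II low, had 3 libraries, and the batches, numbered 1 to 3, coincide with the replicates. Ribosomal RNA was removed before stranded total RNA libraries were made, so non-polyadenylated transcripts were not selected against by a poly(A) step. The labels give no age or sex of the mice, and whether replicate libraries derive from different animals is not stated. The p-values thus reflect variation among these libraries alone, and that variation may be technical.

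Levels are given as CPM, the usual depth-scaled count, on library sizes adjusted by the TMM method. MHC class II transcripts ran against the labels. H2-Aa, the alpha chain of the class II molecule I-A, had 4.40, 5.48 and 6.69 CPM in labelled MHC-II high libraries, against 1377, 1166 and 1506 CPM in labelled MHC-II low libraries, a log2 fold change of -7.93 (edgeR's quasi-likelihood test, Benjamini-Hochberg adjusted p = 2.594e-05). For this reason every group below is called by its label, and directions are between labels. Reads in genes ranged from 15159356 to 25473051 in labelled MHC-II high libraries and from 10202879 to 21290781 in labelled MHC-II low libraries. Replicate 3 labelled MHC-II low stood apart, with 47.3% of its gene reads on a ribosomal RNA copy (3.85% to 13.5% in the other 5 libraries) and 4669283 reads left outside ribosomal and mitochondrial genes (11670849 to 17982808 in the others). Macrophage marker sums were 4097 to 5421 CPM in labelled MHC-II high libraries and 3727 to 9405 CPM in labelled MHC-II low libraries. Dendritic cell marker sums were 47.4 to 90.7 CPM under the high label, against 266 to 399 CPM under the low one. Most of these sums was Itgax, at 45.2 to 88.1 CPM against 241 to 385 CPM, and no other dendritic marker exceeded 5.97 CPM. Of 10 dendritic markers 3 were called, Flt3, Ccr7 and Itgax, all lower under the high label, against 0.446% of all tested genes called. Xcr1, Clec9a and Dpp4 were not tested. Marker sums for T and NK cells were 0.612 to 1.29 CPM under the high label, against 1.88 to 2.40 CPM under the low label. Of these, Cd3e, Cd3d and Cd8a were at 0 in all 6 libraries, while Cd4 had 0.445 to 1.14 CPM and 1.39 to 2.14 CPM under the same labels. Tumour epithelial marker sums were 14.8 to 21.7 CPM under the high label, against 41.0 to 42.6 CPM under the low label. Cdh1 alone was called, lower under the high label, at 9.53 to 11.7 CPM against 30.1 to 37.5 CPM. Krt8 and Krt18 were not called (edgeR adjusted p = 0.788 and 0.997). Epcam, Krt19 and Sftpc had at most 4 reads in any library. The gated-out Ly6c1, Ly6c2 and Ly6g summed to 0.334 to 0.465 CPM under the high label, against 0.693 to 1.61 CPM under the low label, Ly6g being at 0 throughout. B cell marker sums were 2.17 to 2.90 CPM under the high label, against 6.38 to 12.0 CPM under the low label. Fibroblast marker sums were 407, 404 and 71.8 CPM under the high label, against 507, 596 and 126 CPM under the low label. They were lowest in batch 3 under both labels. Neutrophil marker sums were 14.1 to 16.9 CPM under the high label, against 12.5 to 28.6 CPM under the low label. No fibroblast or neutrophil marker was called.

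A snoRNA host transcript is spliced, and its introns are trimmed to release snoRNAs, which guide chemical modification of ribosomal and other small RNAs. Box C/D snoRNAs guide 2′-O-methylation with the methyltransferase fibrillarin, and box H/ACA snoRNAs guide pseudouridylation with dyskerin. The spliced host RNAs of Gas5 and of several Snhg genes begin with a 5′ terminal oligopyrimidine (TOP) tract, the element that ties ribosomal protein mRNAs to mTOR signalling, and they carry short open reading frames and are removed by nonsense-mediated decay. Gas5 was named for its accumulation in growth-arrested cells, where translation is low and its decay is slowed.

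The annotation placed 34 snoRNA or small Cajal body RNA (scaRNA) genes inside the 10 hosts on the host's strand. Gas5 held 10 of them, Snhg1 8, Snhg12 5 and Snhg17 3, Snhg3 and Snhg5 held 2 each, and Snhg6, Snhg8, Snhg15 and Snhg20 held 1 each. These counts are of annotated genes: Snord80 in Gas5 and Snora16a in Snhg12 are each annotated as 2 overlapping genes. Of the 34, 17 had TGATGA within the first 15 bases and CTGA within the last 15 on the RNA strand, the letters of the C and D boxes, against 19.9% of the 1558 annotated snoRNA and scaRNA genes. A further 8 had ACA exactly 3 bases before the annotated end, the H/ACA mark, against 19.1% of the same 1558. A match of these letters is a description of the sequence and not a site. The guests below are shown because they are the ones with reads, Snora73b, Snora73a and Snord87, or because they pair with one another or stand for the unread ones, Snord50a, Snord50b and Snord47. Capitals mark the boxes, and each sequence runs 5′ to 3′ on the RNA strand in GRCm38.

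Snora73b (in Snhg3, chr4:132352322-132352526, minus strand): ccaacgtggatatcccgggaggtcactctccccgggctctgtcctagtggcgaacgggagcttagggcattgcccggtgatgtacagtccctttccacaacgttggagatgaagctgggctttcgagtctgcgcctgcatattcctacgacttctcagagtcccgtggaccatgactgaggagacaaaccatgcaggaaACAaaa
Snora73a (in Snhg3, chr4:132352775-132352979, minus strand): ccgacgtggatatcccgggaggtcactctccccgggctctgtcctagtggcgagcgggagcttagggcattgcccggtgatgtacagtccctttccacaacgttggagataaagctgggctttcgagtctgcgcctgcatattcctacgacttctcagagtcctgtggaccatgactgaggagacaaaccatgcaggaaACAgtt
Snord87 (in Snhg6, chr1:9942463-9942549, minus strand): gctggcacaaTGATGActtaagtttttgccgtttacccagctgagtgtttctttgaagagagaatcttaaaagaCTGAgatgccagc
Snord50a (in Snhg5, chr9:88521529-88521600, minus strand): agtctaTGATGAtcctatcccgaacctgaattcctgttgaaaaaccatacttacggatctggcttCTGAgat
Snord50b (in Snhg5, chr9:88521797-88521868, minus strand): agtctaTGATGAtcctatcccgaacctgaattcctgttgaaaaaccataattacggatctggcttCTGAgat
Snord47 (in Gas5, chr1:161038082-161038158, plus strand): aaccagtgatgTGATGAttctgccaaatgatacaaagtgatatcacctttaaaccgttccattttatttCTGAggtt

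Snora73a and Snora73b, both 205 bases, differed at 7 positions counted from 1 at the 5′ end of Snora73a (G3A, G54A, A111G, T164C, G203A, T204A and T205A, with the Snora73a base first), an identity of 96.6%. Reads of such near-identical copies can be dropped as aligning to several places, so their counts are uncertain. Snord50a and Snord50b, 72 bases each, differed by C50A alone, with the Snord50a base first. Of the 34 guests, 31 lay wholly inside annotated exons of their host and none of these had a read. Outside the hosts described here, 1 of 103 snoRNA genes lying wholly in exons had a read (0.971%), against 18.1% of the 1394 lying in no exon. Reads lying in exons of both a guest and its host may have been left unassigned. The counts therefore do not show whether these 31 guests were expressed. Snora73b, which lies in no exon, had 37, 95 and 61 reads in labelled MHC-II high libraries and 51, 61 and 82 in labelled MHC-II low libraries, or 2.06, 4.23 and 2.18 CPM against 2.72, 2.49 and 14.6 CPM. The groups overlapped, and replicate 3 labelled MHC-II low held the highest value (log2 fold change -1.12, SE 0.70, adjusted p = 0.491). Snora73a had 2, 3 and 4 reads under the high label, against 3, 7 and 0 under the low label, and Snord87 had 2, 9 and 5 against 0, 3 and 0, too few for the test. Apart from Snora73b, reads on the guests were too few to describe, and the values that follow are of the host genes.

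The start sites were read for the oligopyrimidine letters because TOP tracts lie there. RefSeq promoter windows on GRCm38.p6 were given for 9 of the 10 hosts, with 11 starts in all, and the 20 bases before each start and 20 from it on are shown for the 5 hosts that are highest per length or are separated by label below. Capitals mark the longest run of C or T on the transcript strand.

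Gas5, first start (chr1:161034581-161034620, plus strand): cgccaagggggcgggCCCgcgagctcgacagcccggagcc
Gas5, second start (chr1:161035146-161035185, plus strand): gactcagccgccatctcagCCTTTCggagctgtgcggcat
Snhg5 (chr9:88522878-88522917, minus strand): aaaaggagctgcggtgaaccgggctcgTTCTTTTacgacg
Snhg15 (chr11:6528741-6528780, minus strand): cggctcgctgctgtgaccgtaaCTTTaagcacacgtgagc
Snhg3 (chr4:132353667-132353706, minus strand): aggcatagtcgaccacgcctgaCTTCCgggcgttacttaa
Snhg17, first start (chr2:158361503-158361542, minus strand): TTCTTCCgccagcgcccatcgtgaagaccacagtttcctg
Snhg17, second start (chr2:158361490-158361529, minus strand): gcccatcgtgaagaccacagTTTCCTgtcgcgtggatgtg

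A run of at least 6 C or T letters stood in 7 of the 11 windows, against 37.5% of the 32851 RefSeq windows of the same length. The longest runs were 9 letters at Snhg1 and at Snhg12 and 7 at Snhg5, at Snhg8 and in the first Snhg17 window. In that Snhg17 window the run lies wholly before the start. Both Snhg17 windows, which overlap, are counted among the 7 windows with a run. Gas5 had 6 letters at its second start and 3 at its first. Snhg3 and Snhg20 had 5 letters and Snhg15 had 4. A run in the window says only that these letters are there.

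Read against exon length, Gas5 had the highest mean of the hosts and was the highest in 5 of 6 libraries. In replicate 3 labelled low, Snhg15 stood at 17.5 CPM per kilobase and Gas5 at 14.3. In CPM per kilobase of exon not shared with another gene on the same strand, it averaged 22.7 ± 6.06 over the 6 libraries (SD, n = 6) and stood above Snhg5 in 6 of 6. Snhg5 (13.9 ± 3.56), Snhg15 (13.3 ± 3.10) and Snhg3 (13.1 ± 3.85) could not be ordered: Snhg5 was above Snhg15 in 4 of 6 libraries and Snhg15 above Snhg3 in 3 of 6. Snhg1 (8.73 ± 2.76) was below Snhg3 in every library and above Snhg6 (7.11 ± 3.24) in every library. Snhg6 exceeded Snhg8 (6.08 ± 1.70) in 4 of 6. Snhg8 exceeded Snhg12 (4.40 ± 0.917) in 5 of 6, and Snhg12 exceeded Snhg17 (3.37 ± 0.722) in 5 of 6. Snhg17 was above Snhg20 (1.53 ± 0.277) in all 6, which left Snhg20 the lowest per length. Exon length here pools the exons of all annotated transcripts of a host. For Snhg1, Snhg8 and Snhg12 the pooled exons form 1 unbroken block, so no intron is left out of their length. The order per length therefore depends on the annotation. Gas5 alone supplied 42.0%, 40.2% and 39.3% of the 10 hosts' reads in labelled MHC-II high libraries, against 35.3%, 37.9% and 29.9% in labelled MHC-II low libraries.

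**Figure D1:**
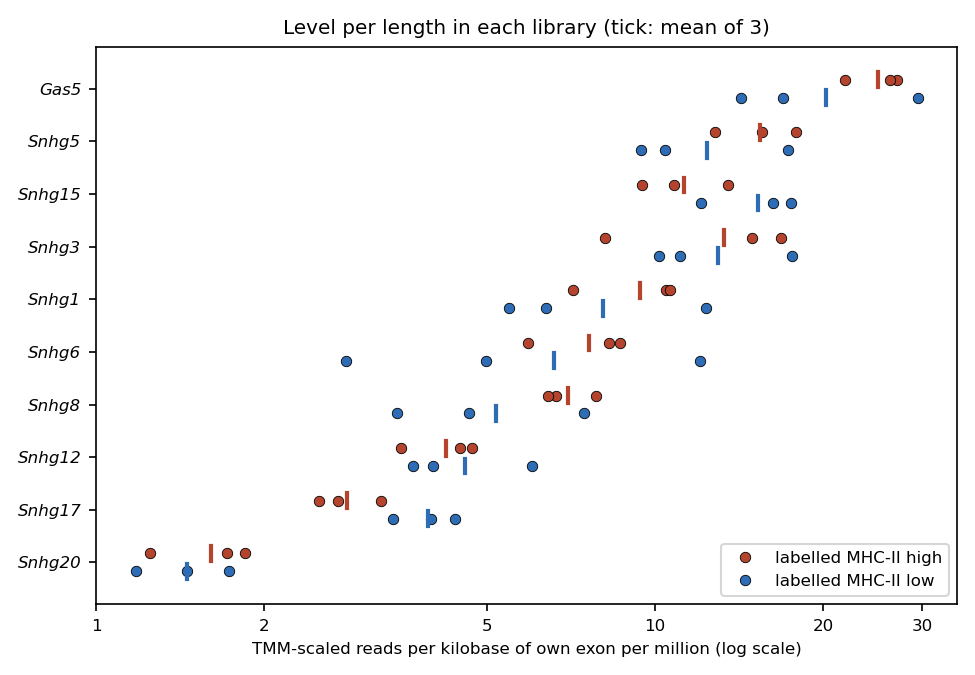
Host RNA level in CPM per kilobase of own exon, on a log axis, with 1 point per library (red for labelled MHC-II high, blue for labelled MHC-II low), a tick at the mean of 3 and hosts ordered by their mean over 6 libraries. Gas5 has the highest mean at 22.7, although Snhg15 lies above it in replicate 3 labelled low, and Snhg20 lies lowest at a mean of 1.53, while Snhg5, Snhg15 and Snhg3 share the range around 13. Exons are pooled over all annotated transcripts of a host.

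No host passed the test between the labels. Across 14140 genes tested, 63 were called at an adjusted p under 0.05 (0.446%), 13 higher and 50 lower in labelled MHC-II high libraries, and 41 (0.29%) with the batch number as a replicate block (1 higher, 40 lower). Of the 10 hosts all were tested and 0 were called, with edgeR's adjusted p between 0.408 and 0.971. DESeq2 also called 0 (2.81% of all genes were called by it), and 1 host, Snhg17, had an unadjusted p under 0.05 in edgeR, against 12.1% of all tested genes. With the replicate block 0 hosts did, against 8.91% of all tested genes. The median log2 fold change, labelled high over labelled low, was 0.16 over the 10 hosts, 7 of them positive and 3 negative, and -0.02 over all tested genes. The intervals do not show that the labels are alike: taken over the 10 hosts, their 95% bounds reach from a fold of 0.511 to one of 2.34. In these bulk libraries, fewer cells of a kind and less RNA per cell cannot be told apart.

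**Figure D2:**
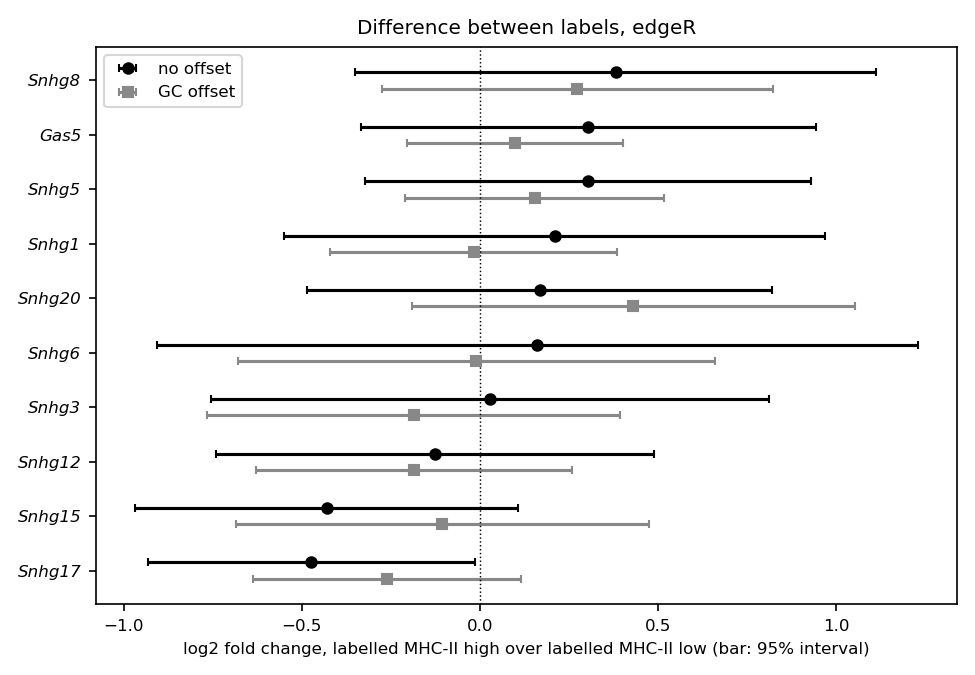
Log2 fold change of each host, labelled MHC-II high over labelled MHC-II low, with the 95% interval of edgeR's quasi-likelihood fit (n = 3 libraries per label), in black without an offset and in grey with each library's GC trend removed. Without the offset the interval of Snhg17 runs from -0.93 to -0.01 and those of the other 9 hosts span 0, and with it all 10 span 0. Neither fit holds the replicate block, with which the interval of Snhg17 also spans 0.

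Gas5 (ENSMUSG00000053332, chr1:161034422-161038539, plus strand, 10 guests) carries box C/D snoRNAs, and its RNA is also described as a decoy of the glucocorticoid receptor. It had 67.6, 83.7 and 81.2 CPM in labelled MHC-II high libraries, against 52.3, 91.2 and 44.1 CPM in labelled MHC-II low libraries. Replicate 2 labelled low was the highest of all 6 libraries and the other 2 labelled low were the lowest, so the groups overlapped. The means were 77.5 ± 8.66 and 62.5 ± 25.2 CPM (SD, n = 3 each), with a log2 fold change of 0.30 (SE 0.28, 95% interval -0.33 to 0.94, adjusted p = 0.591). Within batches 1, 2 and 3 the log2 ratio was 0.37, -0.12 and 0.88.

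Snhg1 (ENSMUSG00000108414, chr19:8723475-8726443, plus strand), which carries 8 guests, was arranged like Gas5. It had 16.8, 24.6 and 24.9 CPM under the high label, against 15.0, 28.9 and 12.8 CPM under the low label, again with replicate 2 labelled low highest and the other 2 labelled low beneath all 3 labelled high. Its log2 fold change was 0.21 (SE 0.33, interval -0.55 to 0.97, adjusted p = 0.748), and the batch ratios were 0.16, -0.23 and 0.96. Snhg6 (ENSMUSG00000098234, chr1:9941959-9944118, minus strand), host of Snord87, had 6.79, 9.93 and 9.47 CPM under the high label, against 5.70, 13.8 and 3.21 CPM under the low label. Here too replicate 2 labelled low was highest and the other 2 labelled low were lowest, and the spread was wider: the means were 8.73 ± 1.70 and 7.56 ± 5.52 CPM, with a log2 fold change of 0.16 (SE 0.47, interval -0.91 to 1.23, adjusted p = 0.869). The value of 3.21 CPM in replicate 3 labelled low rests on 18 reads, whose Poisson 95% interval is 10.7 to 28.4 reads. Such intervals cover counting error only.

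Snhg5 (ENSMUSG00000097195, chr9:88521050-88522929, minus strand), host of the Snord50a and Snord50b pair shown above, had 20.3, 24.6 and 28.4 CPM in labelled MHC-II high libraries, against 16.5, 27.4 and 15.0 CPM in labelled MHC-II low libraries. Replicates 1 and 3 labelled low were beneath all libraries labelled high, and replicate 2 labelled low was within their range. The means were 24.4 ± 4.05 and 19.6 ± 6.79 CPM and the log2 fold change 0.30 (SE 0.27, interval -0.32 to 0.93, adjusted p = 0.587). Snhg8 (ENSMUSG00000104960, chr3:123507552-123508404, minus strand), host of the H/ACA snoRNA Snora24, had 5.68, 4.81 and 4.65 CPM under the high label, against 3.36, 5.40 and 2.50 CPM under the low label, with replicates 1 and 3 labelled low again lowest. Its log2 fold change of 0.38 was the largest positive one among the hosts, with an SE of 0.32 and an interval from -0.35 to 1.11 (adjusted p = 0.566). The 2.50 CPM of replicate 3 labelled low came from 14 reads (Poisson 95% interval 7.65 to 23.5 reads). In these 5 hosts, Gas5, Snhg1, Snhg5, Snhg6 and Snhg8, the batch 2 ratio was negative and the ratios of batches 1 and 3 were positive.

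**Figure D3:**
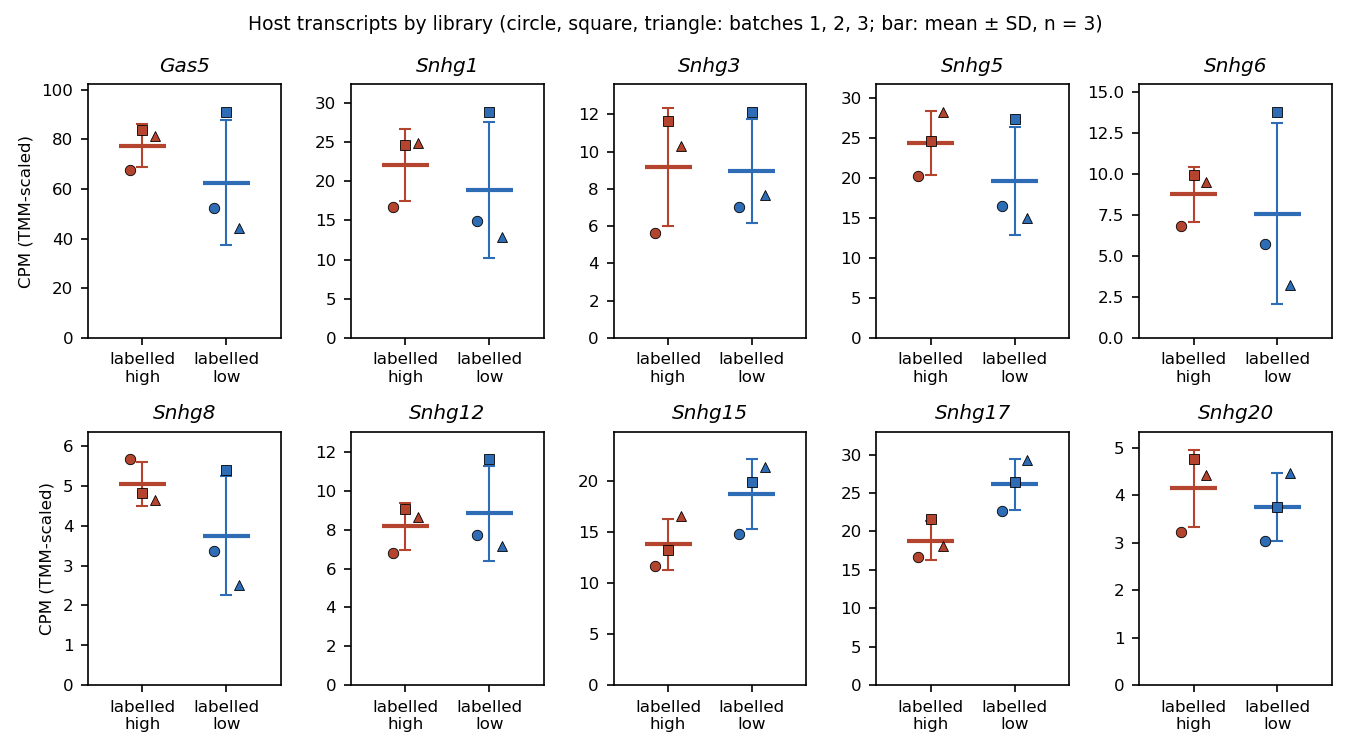
CPM of each host in labelled MHC-II high libraries (left) and labelled MHC-II low (right) of each panel, with the y axis from 0, points shaped by batch and bars at the mean ± SD of 3 libraries. The groups overlap in every panel except Snhg17, where the 3 libraries labelled high (16.7 to 21.6 CPM) lie below the 3 labelled low (22.7 to 29.3 CPM).

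Snhg3 (ENSMUSG00000085241, chr4:132348014-132353686, minus strand), host of Snora73a and Snora73b, and Snhg12 (ENSMUSG00000086290, chr4:132308623-132311024, plus strand), host of Snord99 and of H/ACA snoRNAs, lie on the same chromosome. Snhg3 had 5.62, 11.6 and 10.3 CPM under the high label, against 7.03, 12.1 and 7.67 CPM under the low label, the lowest library being replicate 1 labelled high. Its log2 fold change was 0.03 (SE 0.34, interval -0.76 to 0.81, adjusted p = 0.971). Snhg3 shares 135 exon bases with Rcc1 on the same strand, 13.7% of its exon length, so some reads of either gene may have been left unassigned. Rcc1, a nuclear exchange factor for Ran, had 8.46, 7.44 and 8.22 CPM under the high label, against 9.86, 10.1 and 16.6 CPM under the low label (log2 fold change -0.58, adjusted p = 0.420). Snhg12 had 6.79, 9.09 and 8.65 CPM in labelled MHC-II high libraries, against 7.73, 11.7 and 7.14 CPM in labelled MHC-II low libraries, with replicate 1 labelled high lowest and replicate 2 labelled low highest. Its log2 fold change was -0.13 (SE 0.27, interval -0.74 to 0.49, adjusted p = 0.816).

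Snhg17 and Snhg15 had the lowest fold changes of the hosts. Snhg17 (ENSMUSG00000085385, chr2:158353700-158361580, minus strand), host of 3 snoRNA genes, had 16.7, 21.6 and 18.1 CPM in labelled MHC-II high libraries, against 22.7, 26.5 and 29.3 CPM in labelled MHC-II low libraries. The groups did not overlap. It was the one host of 10 with such a separation, while 9.48% of all tested genes had every library labelled high below every library labelled low and 19.9% were separated either way, so the share among the hosts is near or below the background. The means were 18.8 ± 2.54 and 26.2 ± 3.30 CPM, with a log2 fold change of -0.47 (SE 0.20, interval -0.93 to -0.01, unadjusted p = 0.0449, adjusted p = 0.408). With the replicate block in edgeR the log2 fold change was -0.48 and the interval, -1.03 to 0.08, spanned 0 (adjusted p = 0.578). The batch ratios were -0.44, -0.29 and -0.70.

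Snhg15 (ENSMUSG00000085156, chr11:6525591-6528760, minus strand), host of Snora9, had 11.6, 13.3 and 16.6 CPM in labelled MHC-II high libraries, against 14.8, 19.9 and 21.4 CPM in labelled MHC-II low libraries. The groups overlapped only in that replicate 3 labelled high exceeded replicate 1 labelled low. The log2 fold change was -0.43 (SE 0.23, interval -0.97 to 0.11, adjusted p = 0.456) and the batch ratios were -0.35, -0.58 and -0.37. Snhg15 and Snhg17 were the 2 hosts of 10 with the same direction in all 3 batches, against 40.1% of all tested genes. Snhg20 (ENSMUSG00000086859, chr11:117076008-117078955, plus strand), whose guest is annotated as an scaRNA, had 3.23, 4.77 and 4.43 CPM under the high label, against 3.04, 3.76 and 4.46 CPM under the low label. Its groups overlapped and its log2 fold change was 0.17 (SE 0.28, interval -0.49 to 0.82, adjusted p = 0.768).

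Spread between replicates was wider under the low label. The coefficient of variation over 3 libraries had a median of 17.4% over the hosts under the high label (11.0% to 34.4%) and of 32.8% under the low label (12.6% to 73.0%), and it was larger under the low label for 7 of 10 hosts. All tested genes showed the same, with medians of 15.4% under the high label, against 29.8% under the low label, and 79.9% of genes more variable under the low label. Summed over the 10 hosts, CPM was 161, 208 and 207 in labelled MHC-II high libraries, against 148, 241 and 148 in labelled MHC-II low libraries. The total was highest in replicate 2 labelled low and lowest in replicates 1 and 3 labelled low. Replicate 2 labelled low was the highest library for 5 of the 10 hosts, and replicate 3 labelled low the lowest for 5. Replicate 1 labelled high was the lowest for 4 others, and replicate 3 labelled low the highest for 2.

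Each host's log2 CPM was then set against its own mean over the 6 libraries. In replicate 3 labelled MHC-II low, Snhg6 was -1.20 from its mean, Snhg8 -0.76, Gas5 -0.62, Snhg1 -0.61 and Snhg5 -0.51, with Snhg12 (-0.23) and Snhg3 (-0.19) below their means as well. Snhg15 (0.43), Snhg17 (0.41) and Snhg20 (0.20) were above theirs in that library. The 3 hosts above their mean there have a GC content of 52.3% to 53.9%, and the 7 below it one of 40.5% to 47.6%. This order was noticed after the values were seen. The CPM ratio of Snhg17 to Gas5 was 0.247, 0.258 and 0.222 in the libraries labelled high, against 0.434, 0.290 and 0.664 in those labelled low.

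**Figure D4:**
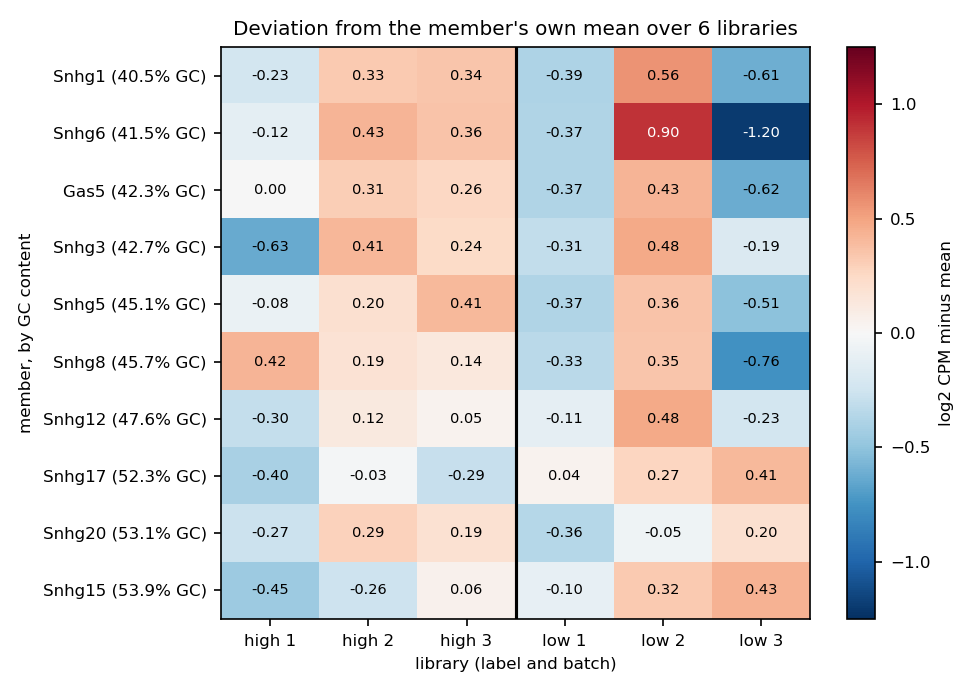
Difference of each host's log2 CPM from its own mean over 6 libraries, with hosts in rows ordered by GC content and libraries in columns, labelled MHC-II high on the left. In replicate 3 labelled low, the 3 hosts with the highest GC content are above their means (0.20 to 0.43) and the other 7 are below (-1.20 to -0.19).

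GC content moved with the libraries across all genes. The change in log2 CPM per 10 percentage points of GC was 0.031, -0.236 and -0.410 in labelled MHC-II high libraries, against 0.189, -0.311 and 0.737 in labelled MHC-II low libraries, so replicate 3 labelled low had the steepest slope. With each library's GC trend taken out of the counts, the log2 fold changes of Snhg17 and Snhg15 were -0.26 and -0.11, those of Gas5 and Snhg5 were 0.10 and 0.15, and that of Snhg20 was 0.43. None was called in that fit, where 2.61% of all genes were, and the smallest adjusted p among the hosts was 0.476 for Snhg17 and for Snhg20. Left without replicate 3 labelled low, Snhg17 had a log2 fold change of -0.39 (adjusted p = 0.607) and Snhg15 -0.33. In the same fit Gas5 had 0.11, Snhg1 0.0079, Snhg5 0.15, Snhg6 -0.16 and Snhg8 0.20, each with an adjusted p between 0.895 and 0.997. Left without replicate 2 labelled low, Gas5 had a log2 fold change of 0.71 (adjusted p = 0.0531), Snhg5 0.66 (adjusted p = 0.0805), Snhg6 0.94 (adjusted p = 0.0843), Snhg1 0.69 (adjusted p = 0.0889) and Snhg8 0.77 (adjusted p = 0.115). The other 5 hosts had log2 fold changes from -0.42 to 0.36 there, with adjusted p from 0.189 to 0.675. Thus 0 of 10 hosts were called without replicate 2 labelled low, against 7.16% of all genes.

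The expressed genes most like the hosts in their pattern over the 6 libraries, by Pearson correlation with the hosts' mean centred log2 CPM among 9364 genes of at least 5 CPM, were Ptcd2 (0.993), Rpl39 (0.991), 5530601H04Rik (0.990), Serinc5 (0.988) and Asb3 (0.986). They were picked as the highest of many and are a description. The mean pattern does not describe every host: the correlation with the mean of the other 9 over the 6 libraries was 0.541 to 0.976 for 7 hosts, and 0.322 for Snhg20, 0.0437 for Snhg15 and -0.108 for Snhg17. Rpl39, a protein of the large ribosomal subunit, had 70.2, 102 and 98.8 CPM under the high label, against 60.5, 122 and 65.1 CPM under the low label, with replicate 2 labelled low highest, as for Gas5.

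Other genes of snoRNA production and of the TOP and decay pathways, taken by list, also gave no call. Of 13 further lncRNA genes listed by name as hosts, 11 were matched and 7 tested, 0 were called, and their median log2 fold change was 0.14. Whether these genes hold snoRNA genes was not checked by coordinates, and Mir17hg is a microRNA host. The low-count hosts Snhg9, Snhg11, Snhg14 and Snhg18 were not tested. 1810026B05Rik had 48.1 ± 8.98 CPM in labelled MHC-II high libraries and 30.6 ± 11.3 CPM in labelled MHC-II low libraries (log2 fold change 0.65, SE 0.29, adjusted p = 0.420). It was called without replicate 2 labelled low (adjusted p = 0.0448), where 7.16% of all genes were. Mir17hg, host of the miR-17 cluster, had 7.88 ± 1.24 and 11.1 ± 3.44 CPM (log2 fold change -0.51, adjusted p = 0.464). It was called with the GC trend removed (log2 fold change -0.76, adjusted p = 0.0364), where 2.61% of all genes were. Zfas1, host of box C/D snoRNAs, had 16.9 ± 2.45 and 12.6 ± 3.76 CPM (log2 fold change 0.41, adjusted p = 0.491).

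Among 20 snoRNP proteins, the median log2 fold change was 0.06 and 0 were called. Fbl, the methyltransferase fibrillarin, had 28.7 ± 3.64 CPM under the high label, against 39.3 ± 10.3 CPM under the low label (log2 fold change -0.45, adjusted p = 0.451), and Gar1, an H/ACA core protein, 7.53 ± 1.08 and 9.70 ± 1.11 CPM (log2 fold change -0.36, adjusted p = 0.493). All 19 nonsense-mediated decay factors were tested with 0 called and a median of 0.13. Smg5, an adaptor for decay of the targeted RNA, had 56.1 ± 4.95 and 78.0 ± 19.7 CPM (log2 fold change -0.47, adjusted p = 0.424). Magoh, a protein of the exon junction complex, had 20.7 ± 3.93 and 14.9 ± 3.20 CPM (log2 fold change 0.47, adjusted p = 0.451).

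Of 19 TOP mRNAs of translation, 18 were tested with a median of 0.11 and 0 called. The 13 TOP regulators had a median of -0.34 and 0 called, with 2 (15.4%) at an unadjusted p under 0.05, against 12.1% of all tested genes. Larp1, the protein that binds TOP mRNAs, had 150 ± 7.25 CPM under the high label, against 246 ± 82.3 CPM under the low label (log2 fold change -0.71, SE 0.25, adjusted p = 0.359). Eif4ebp2, an mTOR-controlled inhibitor of cap-dependent translation, had 32.0 ± 4.06 and 66.7 ± 32.9 CPM (log2 fold change -1.05, SE 0.34, adjusted p = 0.310). For these 2 of 13 the groups did not overlap, against 19.9% of all genes. Both were called without replicate 2 labelled low (adjusted p = 0.0445 for Larp1 and 0.0256 for Eif4ebp2), where 7.16% of all genes were. The 20 ribosome biogenesis genes had a median of -0.13 and 0 called, with Rrn3, the polymerase I initiation factor, at 47.8 ± 2.45 and 34.8 ± 5.76 CPM (log2 fold change 0.45, adjusted p = 0.404). The summed CPM of 15 proliferation genes was 897 to 1282 under the high label, against 873 to 1120 under the low label, and none of the 15 was called. The part of cell composition, GC content and ribosomal RNA carry-over in the hosts' spread was not tested beyond the fits given here.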

How the data were processed

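Per the labels' protocols, RNA was extracted with Trizol, depleted of ribosomal RNA with RiboMinus and made into TruSeq Stranded Total RNA libraries. Per the submitters' processing notes, FastQC, Trimmomatic, STAR, HTSeq, DESeq2 and GRCm38 were used, with the versions, annotation release and strand setting of counting not given in the sources used here. The authors deposited unnormalized HTSeq counts of reads for each Ensembl gene, with 5 summary lines (no feature 35.2% to 49.4%, ambiguous 0.324% to 0.864% and not unique 7.6% to 17.4% of a library's listed reads) that were left out of library sizes and tests. Among 463 genes lying wholly inside exons of a gene on the opposite strand, reads came to 0.200% of those of the covering genes.

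The test was edgeR 4.0.16 under R 4.3.3 (TMM, default low-count filter, quasi-likelihood, groups only), p-values adjusted by Benjamini-Hochberg over 14140 genes and called under 0.05. CPM uses TMM-scaled library sizes, and SE is the fold change over the square root of F. DESeq2 1.42.0, RLE factors, no filter, a GC offset (loess, span 0.4), a replicate block, removal of ribosomal and mitochondrial genes and left-out libraries were alternatives, and the fit was tested on simulated data. GENCODE M21 gave names, exons and guests for 55141 of 55487 genes, and RefSeq the start windows.

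The labels' batch number is the replicate number and pairs the libraries. Same-numbered libraries had correlations of deviations of 0.168, 0.369 and -0.213. Differently numbered libraries had -0.586 to 0.464, so these correlations do not single out the same-numbered pairs. No 2 libraries of a label agreed within sampling noise. The members and lists were chosen with earlier results of these data known. Named genes are all members, H2-Aa, per list up to 3 tested genes of lowest p among those of at least 1 CPM, and the 5 most like genes. Rcc1 is named for its overlap with Snhg3. One gene that the rule names is not reported here.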

Additional observations from a re-analysis of the deposited data

How the results depend on the processing

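None of the 10 hosts was called in any of the 14 other settings, and the hosts' median log2 fold change ran from -0.03 to 0.51 when 1 library was left out. Calls over all genes moved widely: 63 (13 higher, 50 lower in libraries labelled MHC-II high) became 398 (121 and 277) with DESeq2, 549 (113 and 436) with no filter, 369 (152 and 217) with the GC offset, 626 (246 and 380) with the GC offset and replicate block and 28 (0 and 28) without batch 3. With 1 library left out they were 8 to 1030 (0 to 246 higher, 8 to 784 lower), the 1030 without replicate 2 labelled low. The replicate block gave 41 calls (1 higher, 40 lower) and changed no call among the hosts.

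Fold changes near 0 changed sign. Snhg1 had -0.018 with the GC offset, -0.012 with offset and block and -0.084 without batch 3. Snhg3 had -0.19, -0.22 and -0.15 under the same settings, and -0.16 to 0.36 with 1 library left out. Snhg6 had -0.0098 with the GC offset, -0.22 without batch 3 and -0.16 to 0.94 with 1 library left out. Snhg12 ran from -0.25 to 0.16 with 1 library left out. The cause was not tested.

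All genes were called at 2.81% with DESeq2, 2.02% with no filter, 2.61% with the GC offset, 4.43% with offset and block and 7.16% without replicate 2 labelled low. Among the lists, the further lncRNA genes listed by name (7 tested) had 1 call, Mir17hg, with the GC offset, with or without the block. They had 0 to 1 with 1 library left out. The 13 TOP regulators had 1 with no filter, 1 with offset and block, and 0 to 2. The 20 ribosome biogenesis genes had 0 to 1. Protein-coding hosts (226 tested, 255 with no filter) had 2 with DESeq2 (0.885%), 4 with no filter (1.57%), 4 with the GC offset (1.77%), 6 with offset and block (2.65%), and 0 to 5 with 1 library left out. Cytosolic ribosomal proteins (76 tested) had 5 with the GC offset (6.58%), 8 with offset and block (10.5%), and 0 to 3 with 1 library left out. Replicate 3 labelled low held 827 reads over the 10 hosts (2781 to 5887 in the other 5 libraries), of which Snhg8 had 14, Snhg6 18 and Snhg20 25.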

Other observations

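Protein-coding genes that hold a snoRNA gene on their strand numbered 279, of which 226 were tested and 0 called, with 15 (6.64%) at an unadjusted p under 0.05 by edgeR, against 12.1% of all genes, and 2 (0.885%) called by DESeq2, against 2.81%. Their median log2 fold change, labelled MHC-II high over labelled MHC-II low, was 0.13. Etl4 had 4.66 ± 0.837 CPM under the high label and 1.60 ± 0.318 CPM under the low label (log2 fold change 1.59, SE 0.30, adjusted p = 0.0866). Ralgps1, an exchange factor for Ral, had 9.88 ± 0.285 and 21.0 ± 3.93 CPM (log2 fold change -1.08, SE 0.21, adjusted p = 0.0979). For both the groups did not overlap, as for 16.8% of the tested genes of the list and 19.9% of all genes.

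Of 79 cytosolic ribosomal protein genes, 76 were tested and 0 called, with a median log2 fold change of 0.15. Rpl35 had 104 ± 11.9 CPM under the high label and 64.4 ± 17.5 CPM under the low label (log2 fold change 0.69, adjusted p = 0.316), and Rps2 had 346 ± 22.1 and 565 ± 144 CPM (log2 fold change -0.71, adjusted p = 0.298). The groups did not overlap for either gene, as for 14.5% of the list and 19.9% of all genes. With the GC trend removed Rpl35 was called higher (adjusted p = 0.0115), in a fit that called 6.58% of the list and 2.61% of all genes. Without replicate 2 labelled low, Rps2 (adjusted p = 0.0385) and 2 other genes of the list were called lower. These were 3.95% of the list, against 7.16% of all genes called in that fit.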
